A study of Ovis aries with 36 samples.

Results

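The operated infraspinatus of 9 female sheep was sampled 6 weeks after its tendon had been reattached, and the muscle of the 6 animals that received nandrolone was set against that of the 3 that did not. Members are the libraries whose titles give the time point END, 9 of the 36 libraries of the study: 3 of the arm N22W, 3 of N6W and 3 of CONTROL. In every one of the 9 animals, Swiss Alpine sheep aged 2 years per the design text, the infraspinatus tendon was released, left detached for 16 weeks and then repaired, so release and repair are shared by treated and CONTROL animals alike. N22W animals were injected each week with 150 mg of nandrolone decanoate from release on, which makes 22 weeks by END, and N6W animals with the same weekly dose from repair on, which makes 6 weeks. CONTROL animals received no drug. The other libraries come from the same animals: the operated muscle before release (PRE) and at repair (TR), and the infraspinatus of the opposite shoulder at the end (END-CC), the control muscle of the design text, which was exposed to the same drug. The design text describes 6 animals in each arm, of which 3 were analysed here.

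The infraspinatus is a muscle of the rotator cuff, the group of muscles that holds and turns the shoulder joint. When its tendon detaches, the muscle retracts, loses mass and gains fat and connective tissue, and reattaching the tendon often does not restore it. Nandrolone is an anabolic androgen, and its decanoate ester is released slowly from an injected depot. Androgens bind the androgen receptor, a transcription factor present in muscle fibres and in the precursor cells between them, and are known to promote muscle growth.

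Values are normalized reads, that is reads divided by 1 size factor per library, and each gene is given by its Ensembl identifier because 0 of the 25197 matched an entry of the name table used. The role of a gene, and the check of the samples against markers of muscle, fat, connective tissue or blood, are therefore not analysed here. The 9 END libraries held 12826093 to 34878946 reads and 15938 to 17420 genes above 0. By arm the reads ran from 12826093 to 24438386 in CONTROL, from 14507735 to 34878946 in N22W and from 14680257 to 24009671 in N6W, so the ranges overlap. No gene lay over 8-fold above or below every other END library in all 3 libraries of an arm, and none of the END libraries is a copy of another. In CONTROL and N22W the PRE and TR libraries, 12 in all, were scaled apart from the other 24 and differ from them in content. For these arms levels at PRE or TR are not compared with levels at END. The 3 animals of an arm are separate animals, so p-values measure the spread between animals.

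No single gene passed the test for a difference between treated and CONTROL muscle at END. Limma, fitted to log2(normalized reads + 1) of 16417 genes (median over all libraries 0.5 or more), called 0 genes (0%) at a false discovery rate of 0.05, and the smallest adjusted p was 0.127. At an unadjusted p under 0.05 there were 1052 genes, of which 495 were higher under nandrolone (3.02% of the genes tested) and 557 lower (3.39%). The quasi-likelihood test of edgeR on the recovered reads also called 0 genes, with 1043 at an unadjusted p under 0.05. DESeq2 on the same reads called 70 genes, 20 higher and 50 lower. In limma with END and END-CC libraries in 1 fit and the animal as a replicate block, 7 genes passed, 3 higher and 4 lower. In data simulated with these means and library sizes, limma recovered 42% of 100 genes changed 2-fold and 86% of 100 changed 4-fold. The changed genes all had an END mean of at least 10 and were changed alike in both treated arms. Recovery of lower genes, or of changes in 1 arm alone, was not measured. Each gene was drawn independently of the others, so shifts shared by many genes of an animal were not simulated.

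The differences over all genes were small and centred on 0. The median log2 difference, treated minus CONTROL, was −0.01, and 90% of the genes lay between −0.72 and 0.55. A difference of at least 2-fold was seen in 201 genes that were higher and 368 that were lower in treated muscle, together 3.47% of the genes. Of these, 124 and 213 also had an unadjusted p under 0.05. The median standard error of a gene was 0.24. END libraries of different arms lay somewhat farther apart than those within CONTROL or N22W, and less far apart than those within N6W. The root mean square log2 difference over genes had a median of 0.79 between treated and CONTROL libraries and 0.82 between N22W and N6W. It was 0.73 within CONTROL, 0.72 within N22W and 0.88 within N6W.

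**Figure D1:**
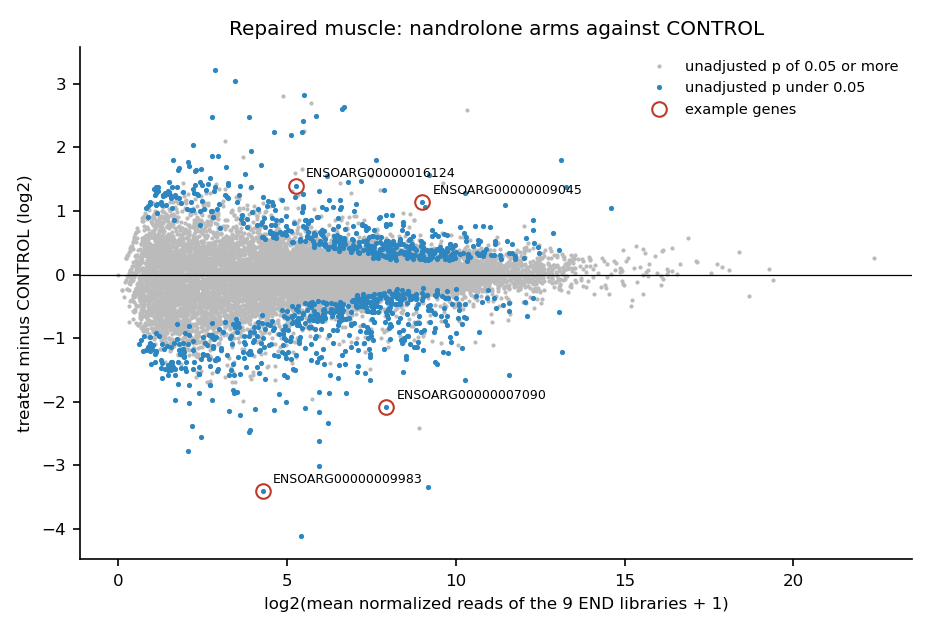
Log2 difference between treated and CONTROL muscle at END (vertical axis) for each of the 16417 genes tested, against the log2 of its mean normalized reads + 1 over the 9 END libraries (horizontal axis). Blue points are the 1052 genes with an unadjusted p under 0.05 and circles mark the 4 example genes; 0 genes passed the adjusted test in limma.

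Each treated arm by itself gave no gene that passed either. For N22W against CONTROL limma called 0 genes (0%), with 824 at an unadjusted p under 0.05 and a smallest adjusted p of 0.16. EdgeR called 0 (777 unadjusted), DESeq2 54 (9 higher, 45 lower), and limma with END and END-CC in 1 fit with the replicate block 7 (1 higher, 6 lower). For N6W against CONTROL limma called 0 (0%), with 1308 at an unadjusted p under 0.05 and a smallest adjusted p of 0.0663. EdgeR called 0 (1283 unadjusted), DESeq2 50 (26 higher, 24 lower), the replicate block fit 1, which was higher, and limma with array weights, which give libraries of larger spread less weight, 53 (31 higher, 22 lower). Both arms share the CONTROL libraries. The treated arms were also compared with each other, which is the test of whether the longer and the shorter course differ: limma called 0 genes (0%), with 1051 at an unadjusted p under 0.05, edgeR 0 (1075 unadjusted), DESeq2 10 and the replicate block fit 1.

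A single N6W animal weighed on these counts. Without N6W animal 2909 the genes at an unadjusted p under 0.05 numbered 1896 for treated against CONTROL, and 2815 for N6W against CONTROL. Without any other animal the former count lay between 749 and 1067. Limma called 0 genes without 2909 for treated against CONTROL and 3 for N6W against CONTROL. In the END library of 2909, 14 genes lay at least 4-fold above all 8 other END libraries and 6 at least 4-fold below them. Its arm mate 2908 stood apart in the opposite sense, with 6 genes above and 26 below.

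**Figure D2:**
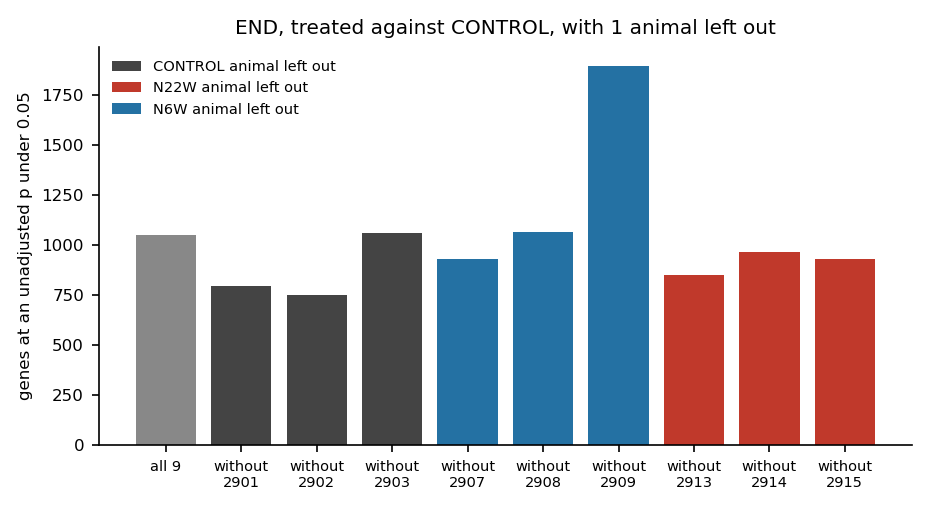
Number of genes with an unadjusted p under 0.05 in limma for treated against CONTROL at END (vertical axis) with all 9 animals and with each animal left out in turn (bars, coloured by the arm of the animal left out). The bar without N6W animal 2909 stands at 1896, and the other 8 left-out bars between 749 and 1067.

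Although none passed, genes existed in which every treated library lay on the same side of every CONTROL library. Without any difference between the arms, about 1 gene in 84 (a share of 0.0119) would separate so in each direction. The counts below stand beside that share and are no test. At END 264 genes (1.61% of those tested) were higher in all 6 treated libraries than in all 3 CONTROL libraries, with a median log2 difference of 0.43, and 235 (1.43%) were lower in all 6, with a median of −0.79. Of the former 48 differed at least 2-fold and of the latter 91. At END-CC, in the opposite shoulder of the same animals, 279 genes (1.7%) were higher in all treated libraries and 293 (1.78%) lower, much the same shares as at END. No gene was at 0 in all 6 treated END libraries with at least 3 reads in all 3 CONTROL libraries, and 1 gene was so in the reverse sense.

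Most genes that separated treated from CONTROL muscle at END did not do so elsewhere, though a larger share of them did than of all genes. Of the 264 higher genes, 28 were also higher without overlap at END-CC, which is 10.6% of the END genes and 10.0% of the END-CC genes, where 1.7% of all genes were so. Of the 235 lower genes, 21 were also lower at END-CC, 8.94% of the END genes and 7.17% of the END-CC genes, where 1.78% of all genes were so. None of either list separated the arms in the opposite direction at END-CC. The END-CC difference had the same sign in 226 of the 264 genes (85.6%) and in 188 of the 235 (80%), against 50.2% and 49.8% of all genes. The libraries of both sites come from the same animals, so these shares describe the animals and are no independent repeat. At TR, when N22W animals had received the drug for 16 weeks, 875 genes (5.33%) were higher in all 3 N22W than in all 3 CONTROL libraries and 682 (4.15%) lower. Of the 264 genes, 49 (18.6%, or 5.6% of the TR genes) were among the former, and of the 235 genes, 55 (23.4%, or 8.06%) among the latter. The N22W and CONTROL animals are the same at TR and at END. Without any difference, 3 against 3 libraries would separate in a share of about 0.1 of the genes, both directions together.

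The 4 genes below were chosen by a rule: of the genes whose treated and CONTROL libraries do not overlap at END and whose END mean is at least 10, those with the smallest p, 2 in each direction. That their groups do not overlap at END is therefore part of the choice. In bulk tissue, fewer cells of a type and less RNA per cell cannot be told apart, and this holds for each of them.

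ENSOARG00000009045 had the smallest p of all genes. In CONTROL muscle its END values were 292.8, 318.9 and 236.8 normalized reads, in N22W 539.2, 543.2 and 454.2, and in N6W 844.4, 764.9 and 642.0. All N22W libraries lay above CONTROL and all N6W libraries above N22W. The arm means were 283 ± 41.9 in CONTROL, 512 ± 50.3 in N22W and 750 ± 102 in N6W (SD, n = 3 each). The log2 difference of treated from CONTROL was 1.13 (SE 0.14, limma adjusted p = 0.127), or 0.86 for N22W (SE 0.16, limma adjusted p = 0.313) and 1.41 for N6W (SE 0.16, limma adjusted p = 0.0663). N22W lay below N6W by −0.55 (SE 0.16, limma adjusted p = 0.746). The difference passed with array weights (limma adjusted p = 0.0198), with END and END-CC in 1 fit with the replicate block (limma adjusted p = 0.0183) and in DESeq2 (adjusted p = 1.45e-07).

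In the opposite shoulder the same gene stood at 614.6, 416.1 and 461.6 in CONTROL, 628.9, 582.6 and 713.0 in N22W and 922.9, 747.8 and 1014 in N6W. Here N22W and CONTROL overlapped, while N6W lay above both. The log2 difference of treated from CONTROL at END-CC was 0.62 (SE 0.14, limma adjusted p = 0.354). Its excess at END over END-CC was 0.52 (SE 0.20, limma adjusted p = 0.906). Values were lower at END than at END-CC in all 3 CONTROL animals and in 5 of the 6 treated animals, N6W animal 2908 being the exception. At TR N22W, by then under drug, stood at 648.9, 675.4 and 784.7 and CONTROL at 493.7, 372.1 and 349.7, again without overlap. These arms did not overlap before release either: at PRE, before any drug, N22W stood at 527.6, 527.5 and 691.6 and CONTROL at 472.7, 445.9 and 456.5. N6W animals 2907, 2908 and 2909, still without drug, stood at 345.2, 437 and 428 at PRE and at 655.3, 356.5 and 646.5 at TR. From TR to END the value thus rose in 2907 and 2908 and hardly moved in 2909.

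ENSOARG00000016124, the second of the higher genes, stood at 13.71, 19.53 and 17.15 in CONTROL muscle at END, at 47.6, 29.47 and 41.91 in N22W and at 55.56, 71.15 and 37.77 in N6W. The treated arms overlapped each other, and both lay above CONTROL. The log2 difference was 1.40 (SE 0.27, limma adjusted p = 0.337), with 1.18 for N22W and 1.62 for N6W (limma adjusted p = 0.668 and 0.402). It passed in DESeq2 alone (adjusted p = 0.0114). At END-CC CONTROL values were 37.1, 30.69 and 21.21, N22W values 33.37, 50.87 and 39.96 and N6W values 52.01, 42.09 and 43.77, with a log2 difference of 0.56 (limma adjusted p = 0.621). Values were lower at END than at END-CC in all 3 CONTROL animals and in 2 of the 6 treated animals, N22W animal 2914 and N6W animal 2909. At TR the N22W values, 66.82, 119.0 and 42.85, overlapped those of CONTROL, 101.1, 70.02 and 38.04. N6W animals 2907, 2908 and 2909, still without drug, stood at 50.13, 38.14 and 36.83 at TR. Of these, 2908 rose clearly to END, while 2907 and 2909 moved little.

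ENSOARG00000009983 was lower in treated muscle. CONTROL animals had 66.04, 20.61 and 50.78 normalized reads at END, N6W animals 5.051, 13.68 and 6.626, and N22W animals 0, 1.281 and 1.572. The 3 arms did not overlap, with N6W between CONTROL and N22W, where the values stand for 0, 1 and 3 reads. The log2 difference was −3.41 (SE 0.49, limma adjusted p = 0.19), with −4.55 for N22W (SE 0.56, limma adjusted p = 0.16) and −2.26 for N6W (SE 0.56, limma adjusted p = 0.499). N22W and N6W differed by −2.28 (SE 0.56, limma adjusted p = 0.746). The joint difference passed with the replicate block (limma adjusted p = 0.0369) and in DESeq2 (adjusted p = 7.5e-07).

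Elsewhere this gene had few reads in most libraries of every arm. END-CC values were 2.854, 1.228 and 11.11 in CONTROL, 2.567, 0.8205 and 2.664 in N22W and 4.001, 1.238 and 2.918 in N6W, so all arms overlapped. The END-CC difference was −0.56 (SE 0.56, limma adjusted p = 0.863), and the END difference exceeded it by −2.84 (SE 0.70, limma adjusted p = 0.764). At TR N22W had 56.24 in animal 2915, beside 12.12 and 2.408, and CONTROL, scaled together with N22W, ran from 2.485 to 5.435, so these arms overlapped. N6W, on another scale, ran from 1.023 to 8.069.

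ENSOARG00000007090 was lower in treated muscle at an abundance that leaves little counting error. CONTROL animals had 461.0, 674.7 and 350.8 at END, N22W animals 123.4, 64.06 and 113.2 and N6W animals 210.5, 86.2 and 123.2. Both treated arms lay below CONTROL and overlapped each other. The log2 difference was −2.08 (SE 0.32, limma adjusted p = 0.213), with −2.30 for N22W and −1.86 for N6W (SE 0.36 each, limma adjusted p = 0.3 and 0.402), and the arms differed by −0.44 (SE 0.36, limma adjusted p = 0.843). The joint difference passed with the replicate block (limma adjusted p = 0.0369) and in DESeq2 (adjusted p = 7.5e-07). Its END-CC values were 338.7, 293.4 and 137.4 in CONTROL, 114.2, 68.93 and 167.8 in N22W and 134.7, 74.28 and 115.3 in N6W, a log2 difference of −1.15 (limma adjusted p = 0.482). CONTROL animal 2903 lay among the treated values there, and the other 2 CONTROL animals lay above them.

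At TR, ENSOARG00000007090 lay lower in N22W, then under drug, than in CONTROL. N22W stood at 95.72, 132.2 and 143.3 and CONTROL at 468.9, 491.7 and 356.9, on the same scale and without overlap. Before release, PRE values of CONTROL and N22W had overlapped (323.2, 594.6 and 254.0 against 354.9, 190.3 and 610.2). The N6W animals, whose libraries are comparable over time, went from 565.8 to 210.5, from 272.1 to 86.2 and from 310.5 to 123.2 between TR and END. At PRE the same animals had stood at 175.3, 105.7 and 273, so each had risen over release before it fell. Drug and repair began together in this arm, and their parts in the fall were not tested. This gene was already known from earlier results of these data to be lower in N22W at TR, so that the arms separate again at END is a description of the same animals.

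**Figure D3:**
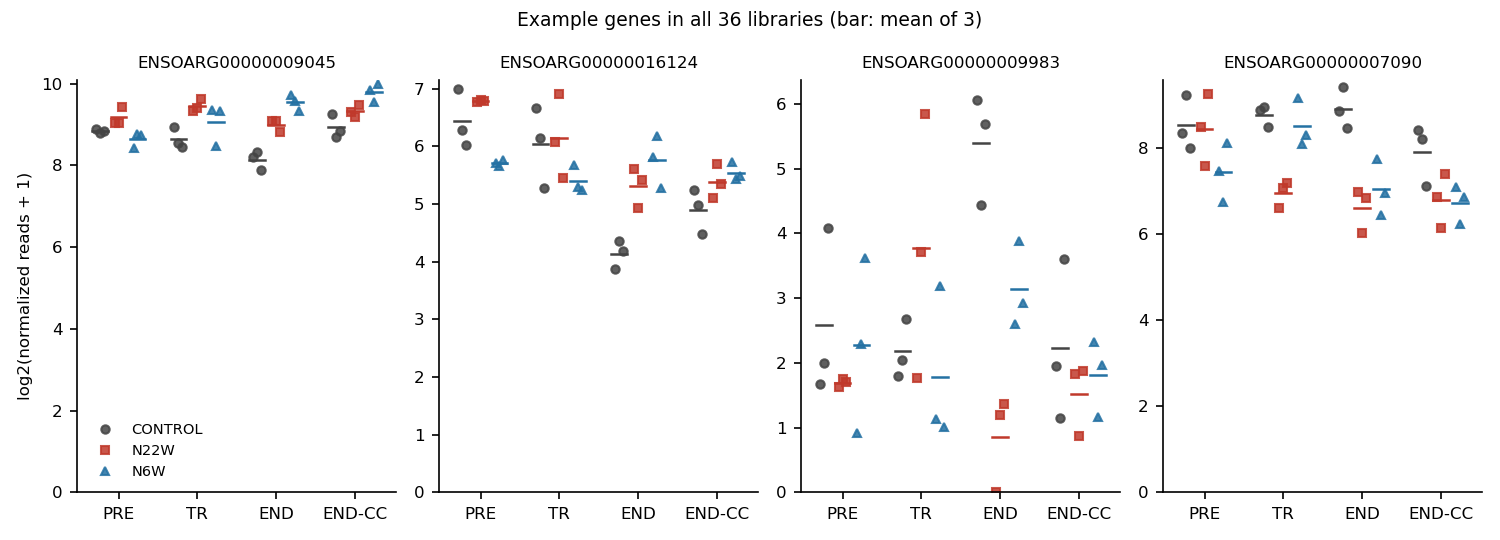
Log2(normalized reads + 1) of the 4 example genes (vertical axis) in every library at PRE, TR, END and END-CC (horizontal axis), with a symbol for each animal, coloured by arm, and a bar at the mean of 3. At END the 3 CONTROL libraries lie below all 6 treated libraries in the first pair of genes and above them in the second; PRE and TR of CONTROL and N22W are not on a common scale with the other libraries.

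Gene groups were taken from the response of the muscle to release, since names were lacking. Between PRE and TR, 1145 genes rose and 1388 fell in CONTROL and N6W, both still untreated at TR (6 animals in 1 limma fit, 12 libraries, animal as a block; 6.97% and 8.45% of the genes tested). Their median log2 changes over release were 0.85 and −0.50. The lists use no END library, but CONTROL and N6W animals contribute both to them and to the END values. No test was made on the lists, and 0 members of either passed at END.

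Genes that had risen on release stood lower in treated than in CONTROL muscle at END. Their median log2 difference was −0.16, against −0.01 over all genes, and 793 of the 1145 (69.3%) were lower, against a share of 51.2% over all genes. With an unadjusted p under 0.05, 149 were lower (13.0%, against 3.39% of all genes) and 19 higher (1.66%, against 3.02%). For N22W the median was −0.12 and for N6W −0.19. At END-CC the same genes had a median of 0.02 and 53.5% were higher in treated animals. The difference between both sites had a median of −0.21, and 73.5% of the genes were lower.

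Genes that had fallen on release showed the opposite, with smaller values. Their median log2 difference at END was 0.09, and 943 of the 1388 (67.9%) were higher in treated muscle, against a share of 48.8% over all genes. With an unadjusted p under 0.05, 82 were higher (5.91%) and 22 lower (1.59%). The median was 0.04 for N22W and 0.14 for N6W. The medians of the 6 treated libraries, each taken against the CONTROL mean, had an SD of 0.18, again larger than the shift. For N22W 56.8% were higher, against 51.9% of all genes, with 33 higher and 32 lower at an unadjusted p under 0.05. For N6W 72.9% were higher, against 47.1% of all genes, with 123 higher and 15 lower. In the END contrast the shift of the genes that fell was thus larger in N6W than in N22W, a difference that was not tested. It did not hold against END-CC of the same animals, where the means of the animal medians were −0.42 in CONTROL, −0.27 in N22W and −0.31 in N6W. At END-CC the median was −0.03, with 56.2% lower, and the difference between the sites had a median of 0.12, with 77.7% higher. Restricted to the 90 genes that had fallen at least 2-fold, the END median was −0.11, so the direction did not hold for the genes with the largest fall. The 460 genes that had risen at least 2-fold had a median of −0.28.

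Set against the opposite shoulder of the same animal, every END library still showed the release pattern. The median log2 difference of END from END-CC over the genes that had risen was 0.81, 0.61 and 0.88 in CONTROL animals 2901, 2902 and 2903. It was 0.30, 0.54 and 0.55 in N22W animals 2913, 2914 and 2915, and 0.53, 0.14 and 1.13 in N6W animals 2907, 2908 and 2909. All 3 N22W animals and 2 N6W animals lay below the 3 CONTROL animals, and N6W animal 2909 lay above all others. The means were 0.76 ± 0.14 in CONTROL (SD, n = 3), 0.46 ± 0.14 in N22W, 0.60 ± 0.50 in N6W and 0.53 ± 0.33 in all 6 treated animals. For the genes that had fallen the medians were −0.48, −0.34 and −0.44 in CONTROL, −0.17, −0.27 and −0.38 in N22W and −0.26, −0.07 and −0.60 in N6W, in the same order of animals, so here N22W and CONTROL overlapped. Left out 1 at a time, N6W animals 2908 and 2909 set the range of the END contrast: for the genes that had risen its median was −0.05 without 2908 and −0.28 without 2909, and for those that had fallen 0.04 and 0.16.

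**Figure D4:**
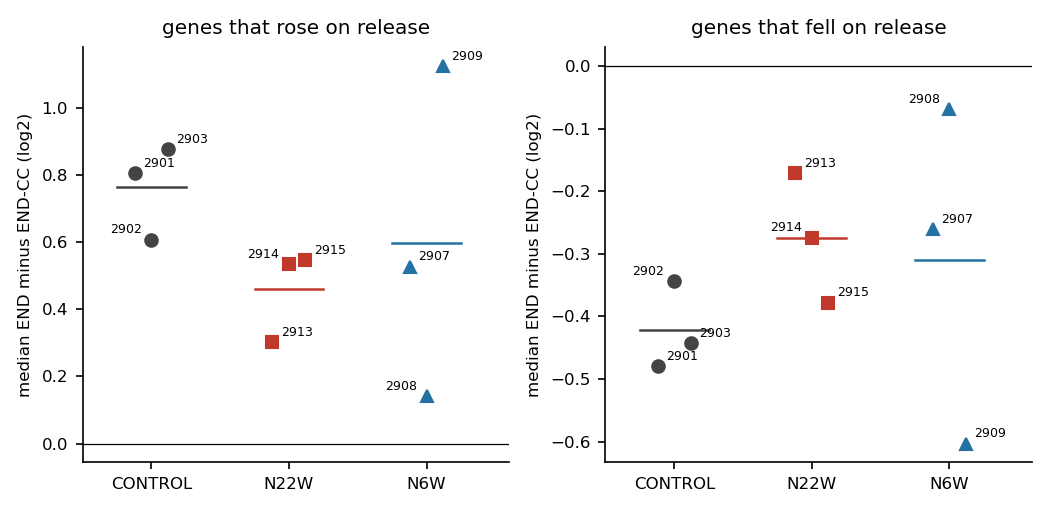
Median log2 difference of END from END-CC in each animal (vertical axis, 1 symbol per animal with its number, bar at the arm mean) over the 1145 genes that rose and the 1388 that fell on release, by arm (horizontal axis). Within N6W the animals span 0.14 to 1.13 for the genes that rose, a wider range than that of CONTROL (0.61 to 0.88) or N22W (0.30 to 0.55).

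In the make-up of the libraries at END, N22W parted from CONTROL in 2 related shares. The most abundant gene, the same in all 36 libraries, took 34.27, 35.42 and 35.67% of the summed values in N22W muscle at END, 25.52, 31.78 and 29.82% in CONTROL and 31.70, 28.52 and 27.60% in N6W. All N22W libraries lay above all other END libraries, with a mean of 35.1 ± 0.75% (SD, n = 3). Such shares also occurred without drug: N6W animals 2907, 2908 and 2909 had 37.17, 35.78 and 34.47% at TR. At PRE they had 33.17, 33.51 and 29.07%. The two-sided exact permutation test of N22W against CONTROL gave p = 0.1, the smallest value that 3 against 3 animals allow. Tests of 1 arm alone were not planned for these shares, and their p-values are not adjusted. With both treated arms together the mean was 32.2 ± 3.51% (n = 6) against 29.0 ± 3.20% (n = 3) in CONTROL, exact permutation p = 0.226 (0.714 adjusted over 4 measures). At END-CC the shares overlapped, with 33.96, 33.44 and 29.85% in N22W, 31.7, 30.49 and 30.08% in CONTROL and 30.34, 30.52 and 27.46% in N6W. The genes from the 2nd to the 50th in abundance took 27.39, 28.35 and 28.23% in N22W at END, below every CONTROL library (32.39, 30.40 and 29.34%), with a mean of 28.0 ± 0.52% (SD, n = 3; exact permutation p = 0.1, again the smallest possible). N6W spanned both arms, with 32.14, 34.30 and 27.57%. At END-CC N22W, with 27.05, 30.06 and 32.04%, overlapped CONTROL, with 31.07, 32.38 and 32.72%. Shares of a library depend on each other, and their part in the N22W differences was not tested.

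With both treated arms together, these and the other measures of make-up overlapped between treated and CONTROL libraries. The 50 most abundant genes took 61.9 ± 3.39% in treated and 59.7 ± 2.19% in CONTROL muscle (exact permutation p = 0.393). Over all 6 treated libraries the genes from the 2nd to the 50th took 29.7 ± 2.86% and 30.7 ± 1.55% (exact permutation p = 0.536). Genes above 0 numbered 16711.5 ± 572 on average in treated and 16840.3 ± 505 in CONTROL libraries (exact permutation p = 0.762). All 3 adjusted values were at or above 0.714.

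**Figure D5:**
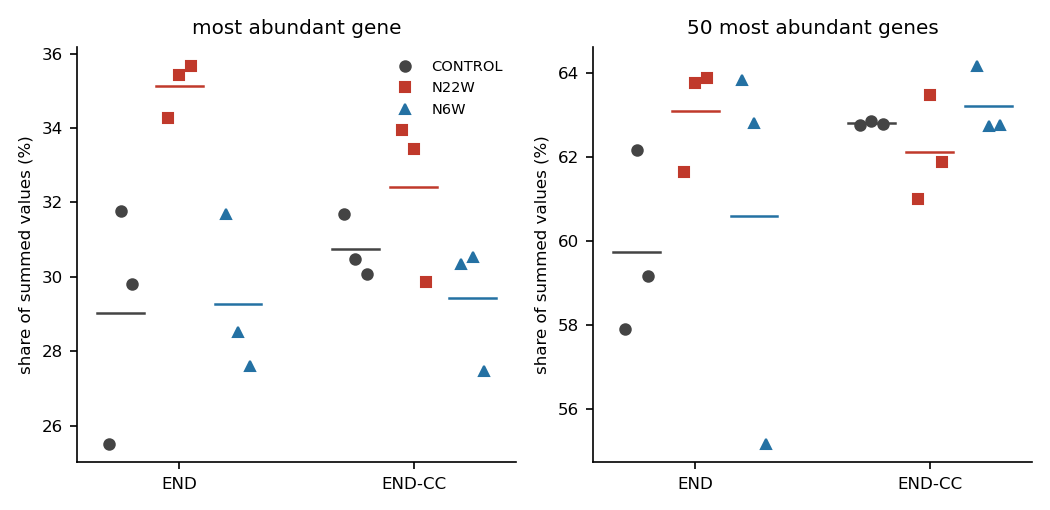
Share of the summed values (vertical axes, percent) taken by the most abundant gene and by the 50 most abundant genes in each END and END-CC library (horizontal axis), coloured by arm, with a bar at the mean of 3; the axes do not start at 0. At END the N22W libraries hold the 3 highest shares of the most abundant gene, and N6W animal 2909 the lowest share of the 50 most abundant genes, 55.17%.

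The drug contrast of the repaired muscle was finally set against that of the opposite shoulder over all genes. At END-CC limma called 0 genes between treated and CONTROL animals (0%), with 1278 at an unadjusted p under 0.05 and a smallest adjusted p of 0.26. There 316 genes were at least 2-fold higher and 233 at least 2-fold lower in treated animals, together 3.34%, so that 2-fold lower genes were the more numerous at END and 2-fold higher genes at END-CC. The test of the difference between the contrasts of both sites, with the animal as a block, called 0 genes (0%), with 850 at an unadjusted p under 0.05 and a smallest adjusted p of 0.127. No gene was therefore shown to respond in the repaired muscle otherwise than in the opposite shoulder. No count-based test was made at END-CC.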

How the data were processed

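Total RNA libraries of sheep infraspinatus were stranded and depleted of ribosomal RNA with human probes, per the labels' protocols. Tools listed in the submitters' processing notes, with no role given, are R 3.0.2 and STAR 2.3.0e, and the genome build listed is Oar_v3.1. The deposited files hold 1 normalized signal per Ensembl identifier, 25197 per library. For their scaling, the sources used here name no method. Within each library the deposited signal moves in whole multiples of 1 step (0.51151 to 1.61525), with 4 significant digits, so it was read as reads divided by a size factor. Up to 100 reads, 100.0% of values lay within 0.1 of a whole read. Recovered reads served edgeR and DESeq2 at END only, where edgeR called 0 and DESeq2 70 genes for treated against CONTROL.

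The planned test for values that are not whole counts was used: limma 3.58.1 (R 4.3.3), mean-dependent prior, log2(value + 1), genes with a median of at least 0.5 over the 36 libraries (16417), the authors' scaling, Benjamini-Hochberg adjustment. This scale understates fold changes of low genes. END was fitted on its 9 libraries with arm means, and the contrast took the mean of both treated arms minus CONTROL. The difference between END and END-CC used 18 libraries with the animal as a block. Deviations of END and END-CC libraries from their arm means correlated within animals (r 0.22 to 0.34 over genes, 9 animals), and the pairing comes from the animal numbers in the labels. EdgeR 4.0.16 and DESeq2 1.42.0 were alternatives. Exact permutation tests, two-sided, compared the library measures; their smallest p is 0.0119 for 6 against 3. The limma script was tested on simulated data and made 7 false calls.

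END libraries of an arm differed from each other by a chi-square per gene of 19.56 to 147.5. Genes named were the 2 higher and 2 lower with the smallest p among those with an END mean of at least 10 and no overlap between treated and CONTROL. The name table (35057 entries, RefSeq, assembly ARS-UI_Ramb_v3.0) matched 0 identifiers, so the planned gene lists, cell type markers and sequences were not used here. The comparisons, gene lists and example rule were chosen with earlier results of these data known.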

Additional observations from a re-analysis of the deposited data

Results flagged for a closer look

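Of the 6 treated END libraries, that of N6W animal 2909 stood apart in the share of the 50 most abundant genes, which was 55.17% of its summed values. The gap to the next library, at 61.66%, exceeded Dixon's critical value for 6 values. The other 5 ran up to 63.9%, and CONTROL libraries from 57.91 to 62.18%. The END-CC library of the same animal held 62.76%. It was the only one found in 8 sets of 6 treated END values, and chance gives about 1 in 20 such sets. Without 2909 the share of treated libraries exceeded that of CONTROL by 3.45 percentage points in place of 2.11 (two-sided exact permutation p = 0.0357, against 0.393 with all animals). Animal 2909 was picked as the lowest treated value of this same share, so leaving it out widens the excess by construction. The p-value without 2909, also not adjusted, is therefore no test of a treated excess. The same animal had the largest median difference of END from END-CC over the genes that rose on release, 1.13.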

How the results depend on the processing

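Count tests planned for END-CC and for the difference between the sites were not run, since in 2 libraries reads could not be told from normalized values. Pseudocount 0.5, no filter, a mean of at least 1, TMM scaling and edgeR left the count of called genes at 0 wherever they were run, as did 2 groups without arm means (1006 at an unadjusted p under 0.05). DESeq2 called 70, 54, 50 and 10 genes for treated, N22W and N6W against CONTROL and N22W against N6W. END and END-CC in 1 fit with the replicate block (correlation within animals 0.313) called 7, 7, 1 and 1. All 7 genes of the first did not overlap at END, and 3 of them are among the example genes. Without the replicate block the difference between the sites gave 0 calls (367 at an unadjusted p under 0.05, against 850). Array weights called 1 gene for treated against CONTROL, 53 for N6W, 4 for N22W against N6W and 1 for the difference between the sites.

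With 1 animal left out the calls ranged from 0 to 1 for treated against CONTROL (1 without 2913), 0 to 4 for N22W (4 without 2908), 0 to 3 for N6W (3 without 2909), 0 to 1 for N22W against N6W (1 without 2915), 0 to 1 at END-CC (1 without 2903) and 0 to 0 for the difference between the sites. Without 2909 the unadjusted count for that difference was 1951. Non-overlapping genes numbered 322 to 711 (higher) and 288 to 709 (lower), and fewer libraries raise such a count by construction. It grew over 1.5 times without 2901, 2902, 2903, 2909 or 2914, and for lower genes also without 2908 or 2915. Without 2909 it was 464 and 451. The treated excess in the 50 most abundant genes was 1.19 to 3.45 percentage points, that of the most abundant gene 1.40 to 4.53, and the 2nd to 50th gene ran from −1.97 to −0.21. The difference in genes above 0 ran from −303 to 161 (main −129), above 0 without 2903 (161) and without 2908 (25.9).

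The release medians kept their direction over 18 alternatives of the END fit (−0.28 to −0.05 and 0.04 to 0.16). With lists from N6W alone they were −0.90 (29 genes, 26 lower) and 0.005 (4 genes). Unlike the main list, those 29 genes were lower in treated animals at END-CC too, with a median of −0.30 and 25 of them lower. With genes of at least 2-fold change the END medians were −0.28 and −0.11. The cause of these shifts was not tested. Of the example genes, 1 value turned: ENSOARG00000009983 at END-CC, 0.12 without 2903, in a range with 1 animal left out of −1.10 to 0.12. The joint END difference of the 4 passed in 3, 1, 2 and 2 of 18 alternatives, in the order given in the results, with limma adjusted p up to 0.85. With 3 animals an arm, changes near 2-fold are often missed.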
